A study of Homo sapiens with 20 samples.

Results

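The oxidative phosphorylation system of human cells is built largely from subunits encoded in the nucleus, and their mRNAs were followed here in MDA-MB-231 cells, a triple-negative breast cancer line, heated through light-absorbing nanoparticles. The members were the genes whose names follow the families NDUF (complex I), SDH (complex II), UQCR (complex III), COX4 to COX8 (complex IV) and ATP5F, ATP5M and ATP5P (complex V) and that had at least 10 counts summed over the 20 libraries. Of 90 matching names, 84 met that minimum among the 36601 genes of the table. Complex I gave 41 members, complex II 4, complex III 9, complex IV 12 and complex V 18. A gene name is not a proof of function: NDUFA6-DT, NDUFV2-AS1 and NDUFB2-AS1 are noncoding RNAs that the name rule takes in, NDUFA4 is counted under complex I by its name although it is now regarded as a subunit of complex IV, and COX7A2L is a factor of respiratory supercomplexes.

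Complex I takes electrons from NADH and complex II from succinate, and both pass them to ubiquinone. Complex III hands them on to cytochrome c and complex IV to oxygen, while complexes I, III and IV pump protons across the inner mitochondrial membrane. Complex V, the ATP synthase, lets those protons flow back and makes ATP. Complexes I, III, IV and V also hold subunits encoded in the mitochondrial genome, so each of these machines needs mRNAs made in both compartments.

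The study's 5 groups of 4 libraries each were compared, all of the same line. The labels give culture at 37 °C for 24 h for every group. The untreated group received neither particles nor laser. The other groups were kept for 4 h with biomimetic nanoparticles at 0.1 mg/ml, and one of them got no laser (nanoparticles alone). The remaining 3 groups were then exposed for 10 min to an 808 nm laser held so that the temperature was 46, 50 or 54 °C. Each library came from 2 wells that were pooled, each seeded with 30000 cells. No group with laser and no nanoparticles was analysed here, so laser light, heat and heat with particles cannot be told apart. The time from laser to lysis is not given. Whether replicates were separate cultures is also not given, so a p-value speaks only to the spread among these libraries, part of which may be technical.

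The libraries held 2401180 to 7710977 estimated counts of 3′ end reads, with the 54 °C group deepest (6769583 ± 707138; SD, n = 4) and the 46 °C group shallowest (2872173 ± 349795). Markers of the line (VIM, CD44, KRT18 and AXL) were counted in 20 of 20 libraries, while the estrogen receptor gene ESR1 had counts in 4 and the progesterone receptor gene PGR in 1. Of the macrophage markers, LYZ and TYROBP were at 0 in every library, PTPRC had counts in 1 library and all 6 together reached at most 69 counts in a library. Levels are CPM (read counts relative to library size), scaled by the trimmed mean of M-values (TMM), unless a share of counts is named. The kit reads mostly 1 fragment near each transcript's 3′ end, so CPM were not divided by length, and levels of different genes are set side by side only as read density at their 3′ ends.

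Differences were tested with edgeR's quasi-likelihood test on 12149 genes, 82 of them members; NDUFA6-DT (24 counts in all) and NDUFV2-AS1 (40 counts) did not pass the filter on low counts. A gene is said to rise or fall where the Benjamini-Hochberg adjusted p over all tested genes was under 0.05, and log2 fold changes are given ± SE. In all, 9 members passed in at least 1 of 7 comparisons: UQCRQ and UQCRFS1 of complex III, COX6C of complex IV, ATP5F1E and ATP5MG of complex V, and NDUFB1, NDUFB6, NDUFS8 and NDUFV1 of complex I. In GENCODE v29 on GRCh38, all of them are protein-coding. UQCRQ lies on chr5:132866560-132868031, UQCRFS1 on chr19:29205321-29213541, ATP5F1E on chr20:59025467-59032382 and ATP5MG on chr11:118401154-118431496. NDUFB1 lies on chr14:92116122-92121917, NDUFB6 on chr9:32552999-32573184, NDUFS8 on chr11:68030617-68036644 and NDUFV1 on chr11:67605653-67612554. Whether counting used strand is not given, so reads of a gene and its antisense neighbour could be mixed. Protein-coding neighbours of this kind were GDF9 for UQCRQ, TUBB1 for ATP5F1E, SMIM27 for NDUFB6 and VPS13B for COX6C. Noncoding ones were C11orf72 for NDUFV1, AC007786.1 for UQCRFS1 and AP001267.1 for ATP5MG. ATP5MG also shares its strand with the overlapping protein-coding model AP001267.5.

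The promoter windows of 4 of these genes are shown because the results turn on them: UQCRQ and ATP5F1E stood highest at 46 °C, and NDUFS8 and NDUFV1 went the other way between 46 and 50 °C. Each sequence is the 250 bases before the start that RefSeq gives on GRCh38.p14, read 5′ to 3′ on the gene's strand. Capitals mark matches on either strand to CCGGAAG (ETS family), CCAAT (read as ATTGG on the other strand) and GCGC followed by any base and TGCGC (NRF1, a transcription factor known for binding promoters of respiratory genes). UQCRQ's window is chr5:132866392-132866641 (plus strand), that of ATP5F1E chr20:59032336-59032585 (minus), that of NDUFS8 chr11:68030431-68030680 (plus) and that of NDUFV1 chr11:67606686-67606935 (plus). GENCODE v29 places the outermost start of UQCRQ, ATP5F1E and NDUFS8 inside these windows and that of NDUFV1 before its window.
UQCRQ: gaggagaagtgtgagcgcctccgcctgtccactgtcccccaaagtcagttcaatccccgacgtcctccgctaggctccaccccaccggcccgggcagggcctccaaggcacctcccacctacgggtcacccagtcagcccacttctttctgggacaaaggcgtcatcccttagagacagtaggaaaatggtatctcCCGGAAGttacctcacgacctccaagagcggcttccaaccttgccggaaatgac
ATP5F1E: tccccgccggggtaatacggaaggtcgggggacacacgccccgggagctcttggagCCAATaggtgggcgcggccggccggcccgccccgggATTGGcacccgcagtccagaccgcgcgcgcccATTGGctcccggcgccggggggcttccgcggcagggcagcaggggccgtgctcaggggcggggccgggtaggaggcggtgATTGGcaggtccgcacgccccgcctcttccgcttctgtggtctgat
NDUFS8: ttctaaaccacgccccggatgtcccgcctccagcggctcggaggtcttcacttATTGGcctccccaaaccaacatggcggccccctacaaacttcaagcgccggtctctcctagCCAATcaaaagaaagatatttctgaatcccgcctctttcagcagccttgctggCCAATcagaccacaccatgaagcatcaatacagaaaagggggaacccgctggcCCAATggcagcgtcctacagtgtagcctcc
NDUFV1: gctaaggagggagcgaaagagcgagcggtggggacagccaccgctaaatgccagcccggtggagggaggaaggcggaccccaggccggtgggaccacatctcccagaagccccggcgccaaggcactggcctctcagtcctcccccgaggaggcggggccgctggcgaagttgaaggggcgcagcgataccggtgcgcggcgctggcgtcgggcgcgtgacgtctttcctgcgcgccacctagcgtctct

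Matches stood in windows of genes that fell and of genes that rose from 46 to 50 °C. ATP5F1E, which fell, and NDUFS8, which rose, each held 4 CCAAT matches. UQCRQ held 1 ETS match at positions -54 to -48 from its start and no CCAAT, and NDUFV1 held none of the 3 motifs. UQCRFS1 held an NRF1 match at -31 to -22, and ATP5MG a match to AAGATGG (YY1) at -149 to -143. RefSeq windows were found for 67 of the 84 members (80 windows, since a gene can have several) and for 8 of the 9 genes that passed a test. Over these, NRF1 was in 16.25% of member windows against 5.08% of all 35116 windows, ETS in 22.5% against 8.52%, GGGCGG (the GC box) in 57.5% against 42.6%, AAGATGG in 8.75% against 3.70% and CCAAT in 32.5% against 32.0%. A heat shock element, searched as GAA, TTC and GAA or as TTC, GAA and TTC with 2 free bases between each, was in 0 of 80 member windows and 0.441% of all windows. Both strands were searched, and a match is a description of letters, not of a bound site.

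Within complex V, ATP5F1E, the epsilon subunit of the catalytic head's central stalk, had the highest mean level of the members with 1111 CPM over 20 libraries, and ATP5MGL the lowest of that complex with 20.6 CPM. Complex III ranged from UQCRB (831 CPM), a subunit near the ubiquinone site, to UQCRHL (4.22 CPM), and complex IV from COX8A (759 CPM) to COX7B2 (1.48 CPM). NDUFS5, an accessory subunit, led complex I with 456 CPM against a median of 116 CPM over its 41 members. The 4 genes of complex II were low, from SDHB at 55.4 CPM to SDHC at 140 CPM. UQCRHL is a copy of UQCRH, and ATP5MGL of ATP5MG, so how reads were split between them is uncertain, though their identity was not measured here. ATP5MGL also overlaps the protein-coding gene CYB5R3 on its own strand, so reads of these genes could be mixed too. The tissue-restricted isoforms COX4I2, COX6A2, COX7A1, COX8C and NDUFA4L2 had 0 counts and COX6B2 had 3 counts among 83838683 counts in all libraries. A count of 0 allows up to 0.0358 CPM, for counting error only. Their common partners were plainly present: COX4I1 had 382 ± 16.4 CPM (SD, n = 4) in cells with nanoparticles alone, COX6A1 331 ± 34.1, COX7A2 266 ± 28.2, COX6B1 262 ± 68.2 and NDUFA4 339 ± 27.5.

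Together the 84 members made up 1.54 to 2.48% of a library's counts, and the share was highest in the 46 °C group. The libraries at 46 °C held 2.39, 2.48, 2.05 and 2.07%. Without the laser the particle-treated libraries held 1.94, 1.97, 1.79 and 1.85%, at 50 °C 1.85, 1.93, 1.54 and 1.58%, and at 54 °C 1.85, 1.95, 1.73 and 1.82%. The untreated libraries held 2.28, 2.13, 1.84 and 1.80%. Each 46 °C library thus lay above every heated or unheated library with nanoparticles, while the untreated libraries spanned both. The mean share rose to 1.19 times that of nanoparticles alone at 46 °C and at 50 °C stood at 0.767 times that of 46 °C. In bulk RNA, fewer cells with the mRNAs and less mRNA per cell cannot be told apart.

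The share depends on what else fills a library, and the mRNAs of the mitochondrial genome moved the opposite way. They took 4.50 to 5.6% of counts at 46 °C, 11.1 to 12.5% in particle-treated cells without laser, 14.6 to 19.1% at 50 °C and 12.7 to 14.7% at 54 °C; their part in the members' share was not tested. With TMM scaling, the summed level of the members was 21453 ± 2208 CPM at 46 °C, 18678 ± 1017 with nanoparticles alone, 18518 ± 1662 at 50 °C and 18545 ± 813 at 54 °C (SD, n = 4). On that scale the ratio of 46 °C to nanoparticles alone was 1.15 and that of 50 to 46 °C was 0.863, and the 46 °C libraries overlapped those of both groups, though not those at 54 °C. The ratios were similar among complexes: from nanoparticles alone to 46 °C the ratio of summed shares was 1.16 for complex I, 1.17 for II, 1.24 for III, 1.18 for IV and 1.20 for V. From 46 to 50 °C it was 0.790, 0.771, 0.743, 0.783 and 0.750 in the same order.

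**Figure D1:**
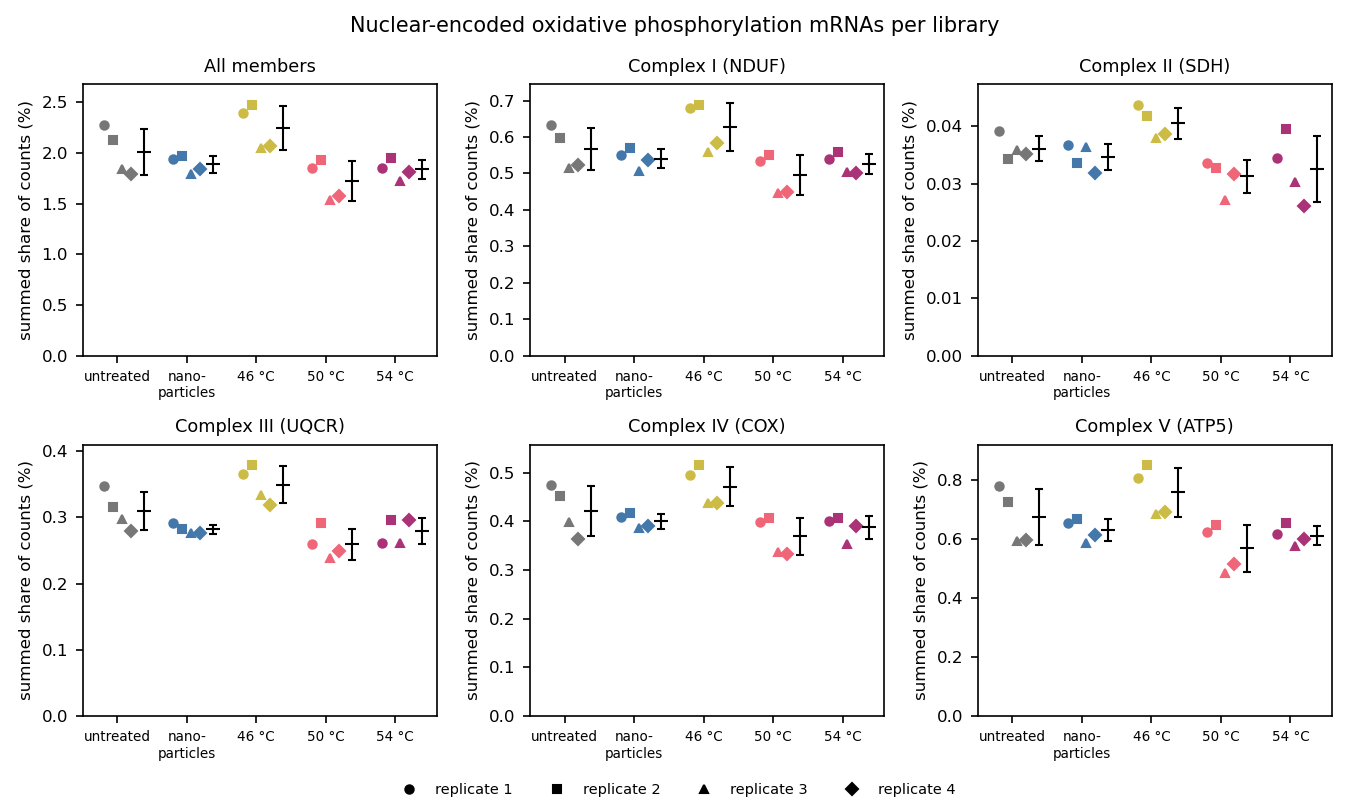
Summed share of all counts (%) per library for the 84 members and for each complex, by group; marker shapes give the replicate number, and bars the mean ± SD of 4 libraries. The 46 °C libraries lie highest in the panel of all members (2.05 to 2.48%, apart from untreated replicates 1 and 2), and replicates 1 and 2 lie above 3 and 4 in every group of that panel.

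The nanoparticles alone changed no member detectably. In this comparison 0 of 82 tested members passed, against 0% of all tested genes in either direction, and at an unadjusted p under 0.05 there were 0 higher and 2 lower members (COX6C and ATP5MG), against 1.84% and 2.10% of all tested genes. DESeq2 also called 0 members. The members' median log2 fold change was -0.08, beside -0.004 over all tested genes, with 27 of 82 above 0 (49.5% of all tested genes). Between the groups 2 members did not overlap, both lower with particles: SDHA, the flavoprotein of succinate dehydrogenase (83.8 ± 8.5 against 104.8 ± 4.4 CPM; -0.32 ± 0.17), and ATP5F1E (1021 ± 42.9 against 1120 ± 53.6 CPM; -0.13 ± 0.10). That is 2.44% of members, where 1.43% of all tested genes were lower without overlap. In this way 0 members were higher (1.3% of all tested genes). ATP5F1E was only just apart, with 1059.6 CPM in its highest library with particles and 1062.1 CPM in its lowest untreated one. Within replicates 1 and 2 the members' median was -0.18 and within replicates 3 and 4 it was 0.06, and without untreated replicate 1 it was 0.02.

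With the laser at 46 °C 3 small subunits rose against nanoparticles alone, 1 each in complexes III, IV and V. UQCRQ, a small subunit of the cytochrome bc1 complex, had 878, 1005, 833 and 779 CPM at 46 °C and 608, 592, 711 and 651 CPM with nanoparticles alone. COX6C, an accessory subunit of cytochrome c oxidase, had 665, 760, 581 and 535 CPM at 46 °C and 480, 458, 503 and 385 CPM without the laser. ATP5F1E had 1273, 1585, 1261 and 1235 CPM at 46 °C and 962, 1019, 1043 and 1060 CPM without it. For each of these genes all 4 libraries at 46 °C lay above all 4 with nanoparticles alone. Untreated libraries also lay below those at 46 °C for UQCRQ (627 to 757 CPM) and ATP5F1E (1062 to 1188 CPM). For COX6C the untreated libraries (490 to 643 CPM) overlapped them.

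The log2 fold changes from nanoparticles alone to 46 °C were 0.45 ± 0.11 for UQCRQ (adjusted p = 0.0172), 0.48 ± 0.12 for COX6C (adjusted p = 0.0270) and 0.39 ± 0.10 for ATP5F1E (adjusted p = 0.0348). These 3 of 82 members compare with 0.617% of all tested genes called higher, and 0 members fell where 0.346% of all genes did. At an unadjusted p under 0.05, 13 were higher (5.63% of all tested genes) and 1, UQCRC1, lower (5.37%). The rest leaned the same way without passing: 61 of 82 members had a positive value, against 50.9% of all tested genes, and their median was 0.12 beside 0.01 over all tested genes. By complex the median was 0.12 for I, 0.19 for II, 0.25 for III, 0.10 for IV and 0.16 for V. All 4 libraries stood apart for 7 members, 8.54% of members where 3.69% of all tested genes were higher without overlap: besides the 3 genes above, NDUFB7 (0.45 ± 0.16), UQCRB (0.32 ± 0.11), SDHC (0.30 ± 0.15) and COX6A1 (0.25 ± 0.12). UQCRB and SDHC were only just apart, with lowest 46 °C libraries of 817.3 and 145.0 CPM against 816.3 and 144.2 CPM as the highest unheated ones with particles. Lower without overlap were 0 members (3.28% of all tested genes).

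The 3 calls were seen in replicates 1 and 2 when the pairs of replicates were fitted apart. Fitted within replicates 1 and 2, the log2 fold changes were 0.65 for UQCRQ, 0.60 for COX6C and 0.53 for ATP5F1E and 12 members were called higher. Within replicates 3 and 4 they were 0.24, 0.33 and 0.25 and 0 members were called higher. Over all tested genes 147 were called higher within replicates 1 and 2 and 45 within replicates 3 and 4, against 75 in the main fit. The difference between these pairs of replicates was not tested. The number of members called fell to 0 without nanoparticles-alone replicate 2 or 4 or 46 °C replicate 1 or 2, and to 1 without nanoparticles-alone replicate 1. Over all tested genes 54, 54, 55, 57 and 71 were called higher in these fits, in the same order.

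Between 46 and 50 °C the largest number of members moved, 7 falling and 2 rising. The 7 that fell were NDUFB6 and NDUFB1, accessory subunits of complex I's membrane arm, UQCRFS1, the Rieske iron-sulfur protein of complex III, UQCRQ, COX6C, ATP5F1E, and ATP5MG, subunit g of the ATP synthase's membrane part. They compare with 0.609% of all tested genes called lower. Both that rose are core subunits of complex I's peripheral arm: NDUFV1 holds the flavin that accepts electrons from NADH, and NDUFS8 holds iron-sulfur clusters that carry them towards ubiquinone. All tested genes called higher were 0.584%.

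NDUFB6 showed the largest fall of these 7 genes, from 130, 146, 118 and 120 CPM at 46 °C to 86.8, 83.1, 73.2 and 66.8 CPM at 50 °C (-0.73 ± 0.17; adjusted p = 0.0127). ATP5MG had the smallest p: 1369, 1513, 1030 and 1129 CPM at 46 °C against 916, 934, 713 and 911 CPM at 50 °C (-0.54 ± 0.12; adjusted p = 0.00655). UQCRFS1 went from 221, 245, 205 and 185 CPM to 142, 158, 145 and 140 CPM (-0.55 ± 0.14; adjusted p = 0.0289). In each of these genes every 50 °C library lay below every 46 °C library. Summed with its copy ATP5MGL, ATP5MG still stood at 1284 ± 224 CPM at 46 °C and 888 ± 110 CPM at 50 °C (SD, n = 4).

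NDUFB1 had 347, 492, 295 and 348 CPM at 46 °C and 260, 291, 242 and 236 CPM at 50 °C (-0.53 ± 0.13; adjusted p = 0.0214). The lowest 46 °C library was only just above the highest at 50 °C. The genes that had risen at 46 °C came back: at 50 °C UQCRQ had 590, 707, 647 and 628 CPM (-0.44 ± 0.11; adjusted p = 0.0188), COX6C 479, 503, 411 and 447 CPM (-0.47 ± 0.12; adjusted p = 0.0306) and ATP5F1E 1171, 1126, 987 and 856 CPM (-0.37 ± 0.10; adjusted p = 0.0477). Both comparisons share the 46 °C libraries, so a high value there raises the first difference and lowers the second.

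The genes NDUFS8 and NDUFV1 went the other way. NDUFS8 had 75.0, 97.0, 75.2 and 83.1 CPM at 46 °C and 119, 129, 152 and 117 CPM at 50 °C (0.65 ± 0.16; adjusted p = 0.0267). NDUFV1 had 78.5, 54.0, 77.2 and 99.7 CPM at 46 °C and 120, 102, 141 and 124 CPM at 50 °C (0.65 ± 0.17; adjusted p = 0.0321). Neither gene overlapped between the groups. Both had lower means at 46 °C than with nanoparticles alone, without passing. NDUFS8 had 82.6 ± 10.3 against 103 ± 21.3 CPM, and NDUFV1 77.3 ± 18.7 against 85.9 ± 3.6 CPM. A low value in the 46 °C libraries raises the difference from 46 to 50 °C. Other core subunits of complex I did not pass, among them NDUFS1 (-0.11 ± 0.18), NDUFS3 (-0.42 ± 0.16), NDUFS7 (0.11 ± 0.23) and NDUFV2 (-0.23 ± 0.15). Of 30 accessory subunits of complex I, NDUFA4 left out, 2 fell and 0 rose.

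**Figure D2:**
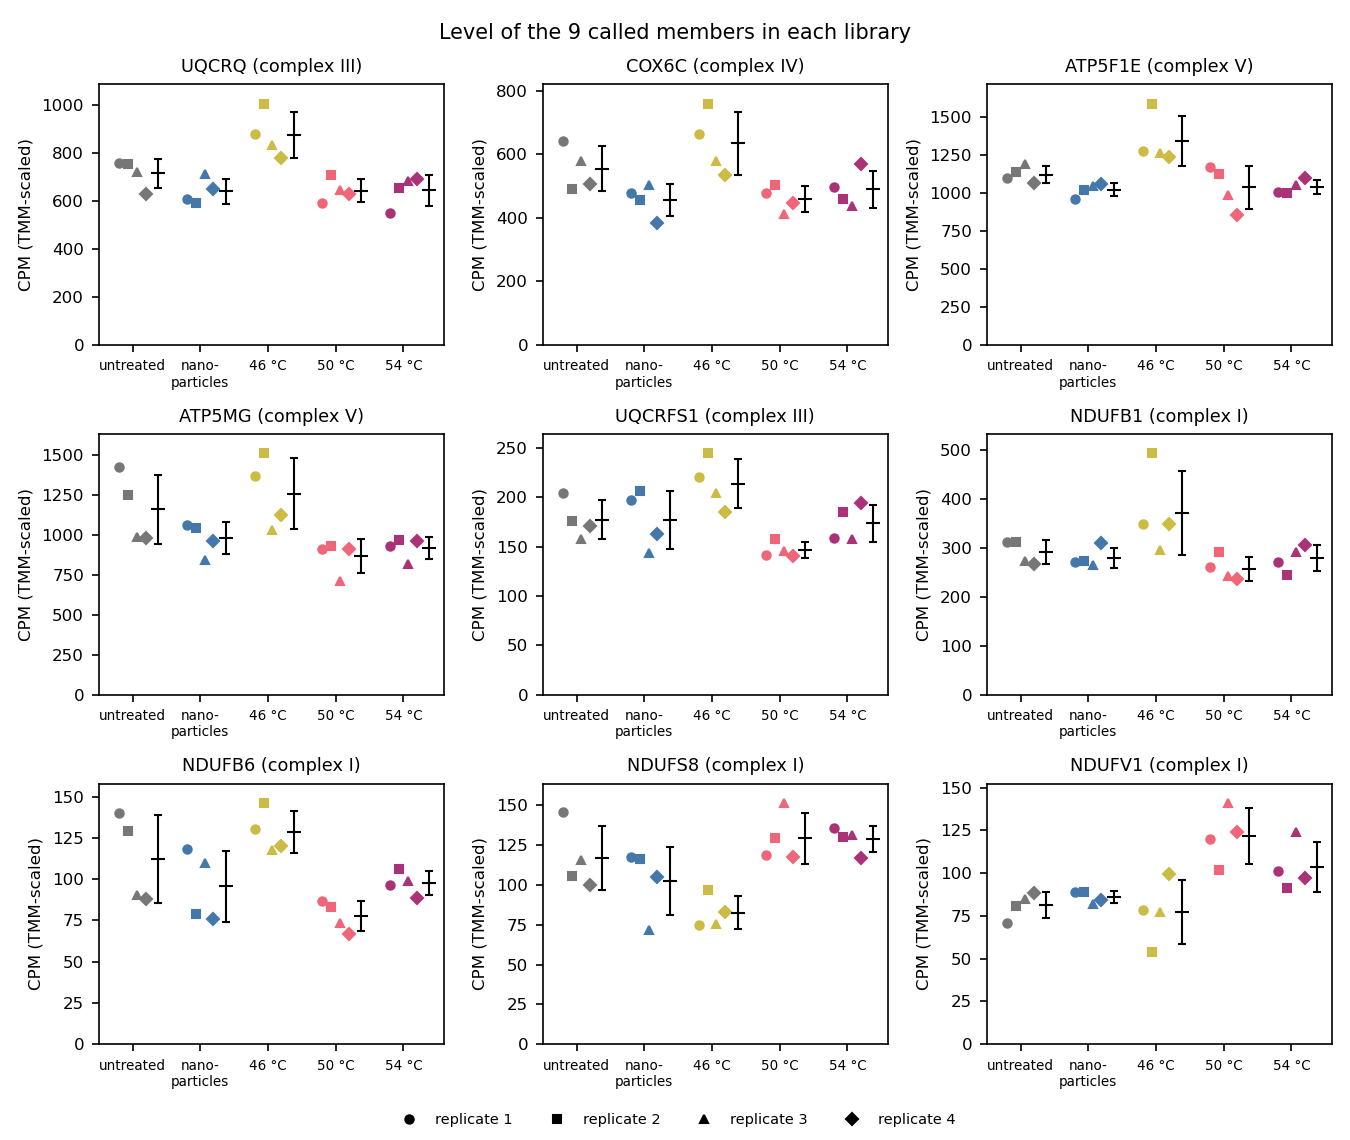
TMM-scaled CPM per library of the 9 members that passed the test in at least 1 comparison, by group; shapes give the replicate number, bars the mean ± SD of 4 libraries, and each axis starts at 0. UQCRQ, COX6C and ATP5F1E are highest at 46 °C and near the level of nanoparticles alone at 50 and 54 °C, and NDUFS8 and NDUFV1 are higher at 50 °C than at 46 °C.

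Over all members, 24 of 82 had a positive value from 46 to 50 °C, against 49.7% of all tested genes, and the median was -0.17 beside -0.004. At an unadjusted p under 0.05, 20 members were lower (5.34% of all tested genes) and 3 higher (5.27%). Without overlap 11 members were lower, 13.4% where 3.41% of all tested genes were; besides the 7 that passed these were COX7C (-0.40 ± 0.11; adjusted p = 0.0666), NDUFB2 (-0.42 ± 0.14), NDUFB7 (-0.40 ± 0.16) and NDUFA4 (-0.21 ± 0.13). Likewise 3 were higher without overlap, 3.66% where 3.70% of all tested genes were: the 2 that passed and UQCRC1, a core protein of complex III (0.34 ± 0.16).

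How many passed depended on scaling and on single libraries. With library totals in place of TMM 0 members rose and 16 fell, while the median of all tested genes shifted to -0.18 and that of the members to -0.35. Within replicates 1 and 2, 1 member rose and 10 fell. Within replicates 3 and 4, 0 rose and 1 fell (ATP5F1E), although each of the 9 had the same sign in both pairs of replicates. Over all tested genes 126 rose and 110 fell within replicates 1 and 2, and 40 and 35 within replicates 3 and 4. The main fit called 71 higher and 74 lower. The 7 falls went to 0 without 46 °C replicate 2 or 50 °C replicate 3, to 1 without 50 °C replicate 4 and to 3 without 46 °C replicate 1 or 50 °C replicate 1. The 2 rises went to 0 without 46 °C replicate 1 or 3 or 50 °C replicate 3 and to 1 without any other library of these groups. Over all tested genes, 43 to 56 fell in the fits named for the falls and 50 to 75 rose with a library left out. Among the fits with a library left out, ATP5MG lost its call only without 46 °C replicate 2 (adjusted p = 0.0763) or 50 °C replicate 3 (adjusted p = 0.0676). It also lost its call within replicates 3 and 4.

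**Figure D3:**
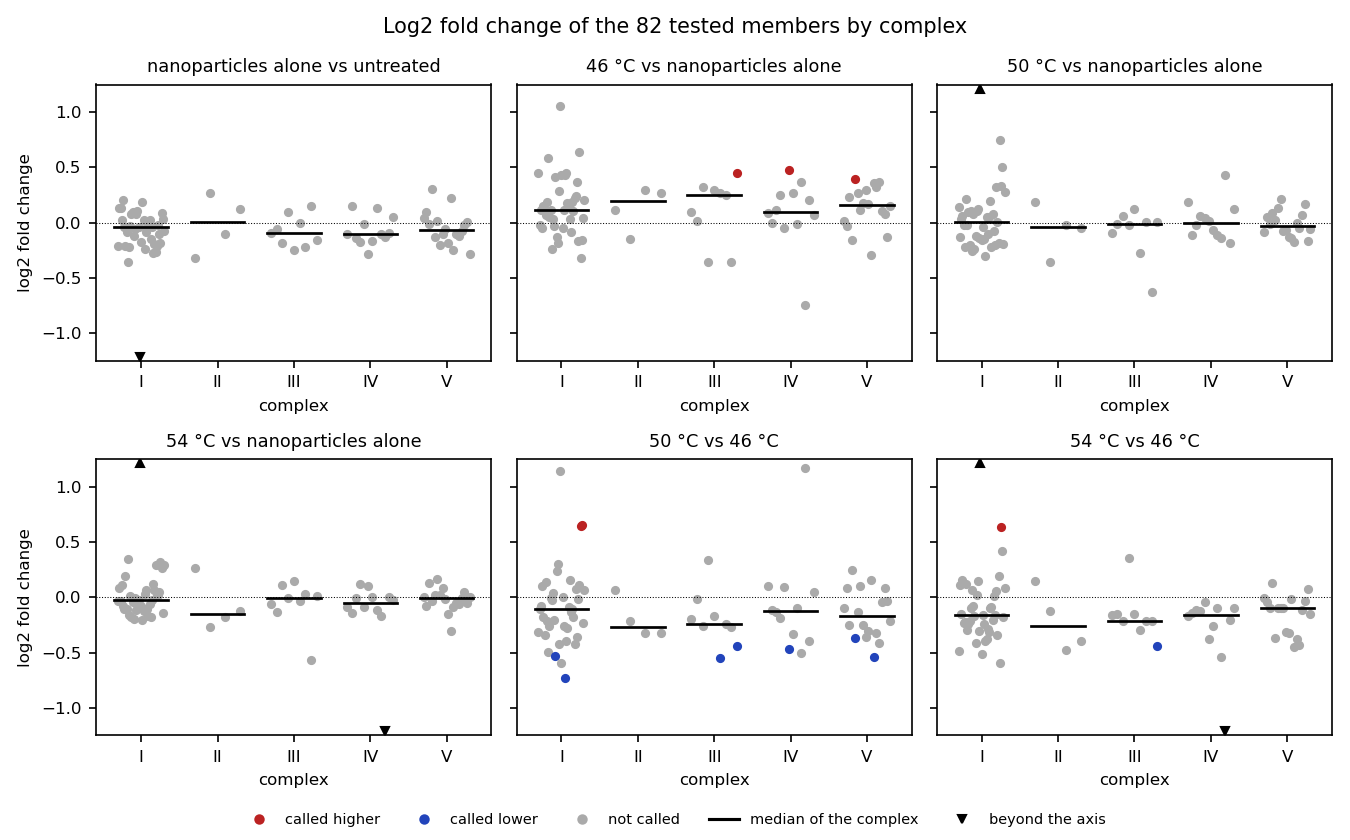
Log2 fold change of each of the 82 tested members by complex in all comparisons except 54 against 50 °C; red points rose and blue points fell by the test, grey points did not pass, lines are the median of each complex and triangles are values beyond the axis. From 46 to 50 °C the members lie mostly below 0 (24 of 82 above), and from nanoparticles alone to 46 °C mostly above (61 of 82).

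At 54 °C, set against the same 46 °C libraries, 2 members passed. UQCRQ fell, with 549, 653, 682 and 693 CPM at 54 °C, all below the 779 to 1005 CPM of 46 °C (-0.44 ± 0.11; adjusted p = 0.0284). NDUFS8 rose, with 136, 130, 131 and 117 CPM against 75.0 to 97.0 CPM (0.64 ± 0.16; adjusted p = 0.0404). All tested genes were called lower in 0.395% and higher in 0.239%. ATP5MG (-0.45 ± 0.12; adjusted p = 0.0553) and ATP5F1E (-0.37 ± 0.10; adjusted p = 0.0832) did not overlap between the groups but missed the threshold. Of 82 members 17 had a positive value (50.2% of all tested genes), the median was -0.16, and 12 members were lower without overlap, 14.6% where 3.05% of all tested genes were. Higher without overlap were 2, NDUFS8 and UQCRC1 (2.44%, against 2.68% of all tested genes). At an unadjusted p under 0.05, 20 were lower (4.35% of all tested genes) and 3 higher (4.21%).

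Both calls at 54 °C depended on single libraries. UQCRQ's value was -0.64 within replicates 1 and 2 and -0.22 within replicates 3 and 4, and it lost its call without 46 °C replicate 1 or 2 or 54 °C replicate 1, 2 or 3. NDUFS8 had 0.63 and 0.66 in the same fits but lost its call without any of 46 °C replicates 1, 3 and 4 and 54 °C replicates 1, 2 and 3. With library totals 0 members rose and 6 fell, and DESeq2 called 1 higher and 5 lower. Within replicates 1 and 2, 0 members were higher and 13 lower, and within replicates 3 and 4, 0 in either direction. Over all tested genes, 81 fell with library totals, 78 with DESeq2, 133 within replicates 1 and 2 and 28 within 3 and 4. In the same order 21, 52, 82 and 15 rose, and the main fit called 48 lower and 29 higher.

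Set against nanoparticles alone, neither 50 nor 54 °C changed a member by this test. At 50 °C 0 of 82 passed where 0.527% of all tested genes were higher and 0.691% lower, and the members' median was -0.02 with 38 of 82 above 0 (51.7% of all tested genes). At an unadjusted p under 0.05, 5 members were higher and 0 lower (5.69% and 5.71% of all tested genes), and DESeq2 called 0. NDUFS7, a core iron-sulfur subunit of complex I, came closest (0.75 ± 0.23; adjusted p = 0.104). NDUFV1 followed, with 85.9 ± 3.6 CPM without the laser and 122 ± 16.2 CPM at 50 °C (0.50 ± 0.17; adjusted p = 0.141), and its groups did not overlap. NDUFS8 had 103 ± 21.3 and 129 ± 15.8 CPM (0.33 ± 0.16; adjusted p = 0.429), also without overlap. Its lowest 50 °C library (117.30 CPM) was only just above its highest with nanoparticles alone (117.27 CPM). In all 5 members were higher without overlap (4.2% of all tested genes), COX4I1, ATP5MC2 and NDUFS4 besides these, and 3 were lower (4.13%), SDHB, COX7C and COX5A. UQCRQ differed by 0.01 ± 0.11, COX6C by 0.01 ± 0.12 and ATP5F1E by 0.02 ± 0.10, with 95% intervals no wider than -0.23 to 0.25.

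At 54 °C 0 of 82 passed against nanoparticles alone, where 0.0741% of all tested genes were higher and 0.0494% lower. At an unadjusted p under 0.05 there were 2 higher (NDUFS8 and NDUFV3; 3.08% of all tested genes) and 1 lower (2.67%), and DESeq2 called 0. The median was -0.02, with 34 of 82 above 0 (51.1% of all tested genes). Without overlap 1 member was higher, NDUFV1 (2.19% of all tested genes), and 2 were lower, COX7B2 and SDHB (2.09%). COX7B2, the one at an unadjusted p under 0.05, is an isoform with 109 counts in all and had 0, 0.25, 0 and 0 CPM at 54 °C and 1.02, 1.09, 4.29 and 0.98 CPM without the laser; counts this low carry no fold. From 50 to 54 °C 0 of 82 members passed (0.0576% of all tested genes higher, 0.140% lower), with 0 higher (3.17% of all tested genes) and 3 lower (2.85%) at an unadjusted p under 0.05 and 0 by DESeq2. The members' median there was 0.01, with 45 of 82 above 0 (49.3% of all tested genes), and it was -0.08 within replicates 1 and 2 and 0.07 within replicates 3 and 4. COX4I1, a regulatory subunit of complex IV, was the 1 member lower without overlap (2.65% of all tested genes), with 435 ± 21.3 CPM at 50 °C and 361 ± 11.04 CPM at 54 °C (-0.27 ± 0.11; adjusted p = 0.663). Higher without overlap were 2, COX7C and NDUFB6 (2.48%), both only just apart. Their highest 50 °C libraries had 553.8 and 86.8 CPM and their lowest 54 °C libraries 555.2 and 88.6 CPM.

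The catalytic subunits of complex V and COX5A of complex IV lay nearest 0 at 46 °C among the subunits listed here. COX5B, SDHA and SDHB also differed by less than their SE. ATP5F1A and ATP5F1B, which form the catalytic ring of the ATP synthase, differed from nanoparticles alone by 0.01 ± 0.12 (95% interval -0.23 to 0.25) and -0.03 ± 0.11 (-0.25 to 0.19). COX5A differed by 0.00 ± 0.12 and COX5B, another subunit of complex IV, by 0.11 ± 0.13. The paired core proteins of complex III took opposite signs, UQCRC1 at -0.36 ± 0.16 and UQCRC2 at 0.29 ± 0.16, and neither passed. In complex II, SDHA differed by 0.12 ± 0.17 and SDHB, its iron-sulfur partner, by -0.15 ± 0.19. The intervals do not show that the genes stayed the same; for SDHB it reaches from -0.54 to 0.24.

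The c-ring through which protons pass is encoded by ATP5MC1, ATP5MC2 and ATP5MC3, which give the same mature protein. Their summed level was 1191 ± 232 CPM untreated, 1106 ± 164 with particles and no laser, 1253 ± 194 at 46 °C, 1142 ± 191 at 50 °C and 1171 ± 83.5 at 54 °C (SD, n = 4), and the groups overlapped. None of the 3 passed in any comparison. UQCRH, the hinge protein of complex III, summed with UQCRHL had 407 ± 46.7 CPM with nanoparticles alone, 481 ± 69.4 at 46 °C and 407 ± 72.3 at 50 °C.

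Replicate number separated some members in every group. Replicates 1 and 2 held a higher summed share than replicates 3 and 4 in all 5 groups (means of 2.20 and 1.82% untreated, 1.96 and 1.82% with particles and no laser, 2.44 and 2.06% at 46 °C, 1.89 and 1.56% at 50 °C, 1.90 and 1.77% at 54 °C). For 4 members every one of the 10 libraries of replicates 1 and 2 lay above every one of the other 10, and they were picked out after their values were seen. ATP5MC1 had 257 to 351 CPM in the first and 128 to 208 CPM in the second, COX6B1 253 to 366 and 164 to 248 CPM, ATP5MC3 633 to 846 and 471 to 609 CPM, and NDUFS5 472 to 670 and 309 to 445 CPM. These 4 are 4.88% of the tested members, where 0.321% of all tested genes were higher in replicates 1 and 2 in this way, and 0 members were higher in replicates 3 and 4 (0.222% of all tested genes). Sequencing depth differed too: replicates 1 and 2 had more counts on average in every group except 50 °C. What sets the replicates apart is not given in the labels; the fits within each pair of replicates stand beside the results above.

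In the comparisons that include 46 °C, the mRNAs of the mitochondrial genome, whose products join the same complexes, moved against the members and by more. From nanoparticles alone to 46 °C 9 of 13 fell and 0 rose (median -1.24), with MT-CO3 at -2.03 ± 0.12 (adjusted p = 4.6e-11) and MT-ATP8 at -1.93 ± 0.17 (adjusted p = 3.2e-06). MT-ND6 lies on the opposite strand of the other mRNAs, so its reads are uncertain without a known strand setting. From 46 to 50 °C 12 of 13 rose (median 1.91), and from 46 to 54 °C 9 did. With nanoparticles alone as the base, 6 rose at 50 °C, and at 54 °C only MT-ND6 fell (-2.51 ± 0.44; adjusted p = 0.0338); from 50 to 54 °C MT-CO1 fell (-1.41 ± 0.24; adjusted p = 0.0170).

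Among genes that build and feed the complexes, all calls from 46 to 50 °C were falls, and 0.609% of all tested genes were called lower there. Among 47 assembly factors 3 fell: UQCC3, which helps assemble complex III (-0.79 ± 0.20; adjusted p = 0.0219), COX17, a copper chaperone of complex IV (-0.59 ± 0.16; adjusted p = 0.0473), and NDUFAF8, a complex I factor (-0.52 ± 0.13; adjusted p = 0.0315), with a median of -0.25 over the list. Among 78 mitochondrial ribosomal proteins, which translate the mitochondrial mRNAs, MRPL3 (-0.66 ± 0.17; adjusted p = 0.0338) and MRPL14 (-0.56 ± 0.14; adjusted p = 0.0205) fell, with a median of -0.16. At 46 °C against nanoparticles alone 1 ribosomal protein rose, MRPL33 (0.60 ± 0.12; adjusted p = 0.0035), where 0.617% of all tested genes did. From 46 to 54 °C SLIRP, an RNA-binding protein that stabilises mitochondrial mRNAs, fell (-0.50 ± 0.12; adjusted p = 0.0324), where 0.395% of all tested genes did. Of the remaining lists, 0 of 16 citrate cycle enzymes and 0 of 18 electron and nucleotide carriers passed in any comparison, and 0 of 15 tested regulators of mitochondrial transcription and biogenesis passed apart from SLIRP.

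The lists kept as signs of RNA quality also differed in the laser groups. Of 5 tested nuclear long noncoding RNAs 3 were higher at 46 °C than with nanoparticles alone, NEAT1, MALAT1 and KCNQ1OT1 (2.10 ± 0.31; adjusted p = 5.2e-06), and the list took 0.375 ± 0.056% of counts at 46 °C, 0.173 ± 0.032% with nanoparticles alone, 0.364 ± 0.041% at 50 °C and 0.441 ± 0.048% at 54 °C (SD, n = 4). KCNQ1OT1 fell from 46 to 50 °C (-2.02 ± 0.31; adjusted p = 1.1e-05). Of 11 tested replication-dependent histones 0 passed at 46 °C, and 2, HIST1H1E and HIST1H2AG, were higher at 50 °C than at 46 °C (median 1.16 over the list). The part of RNA quality in the members' differences was not tested.

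The members' difference from 46 to 50 °C varied with the GC content of their transcripts. Over the 81 protein-coding members tested, the median GC content of a gene's coding transcripts in GENCODE v29 ran from 34.4 to 69.3%, and Spearman's rho of GC with the log2 fold change was 0.45 (Pearson's r 0.40). Across the other 11195 tested genes with a coding transcript rho was 0.29, so the relation is not particular to these genes. Of the 40 members above the median GC 16 were positive with a median of -0.05, and of the 41 at or below it 7 were positive with a median of -0.25. NDUFS8 (62.0% GC) and NDUFV1 (60.5%), which rose, were GC-rich, and ATP5F1E (38.7%), NDUFB6 (41.7%) and COX6C (43.9%), which fell, were not. UQCRQ, at 53.1%, fell as well. NDUFB7 (65.0%), richer in GC than both that rose, was lower without passing, with 144 ± 4.8 CPM at 46 °C and 109 ± 7.1 CPM at 50 °C. At 46 °C against nanoparticles alone rho was -0.30 over the members and -0.09 over the other genes, and from 46 to 54 °C 0.37 and 0.15. Mean CPM also varied with the difference: over the members rho was -0.32 (Pearson's r -0.43) from 46 to 50 °C and 0.34 (0.47) from nanoparticles alone to 46 °C, where the other genes had -0.08 and -0.03. Transcript length gave rho 0.12 from 46 to 50 °C. Genes are not independent replicates and share the same libraries, so these values are descriptions with no p, and the part of GC content or level in the calls was not tested.

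**Figure D4:**
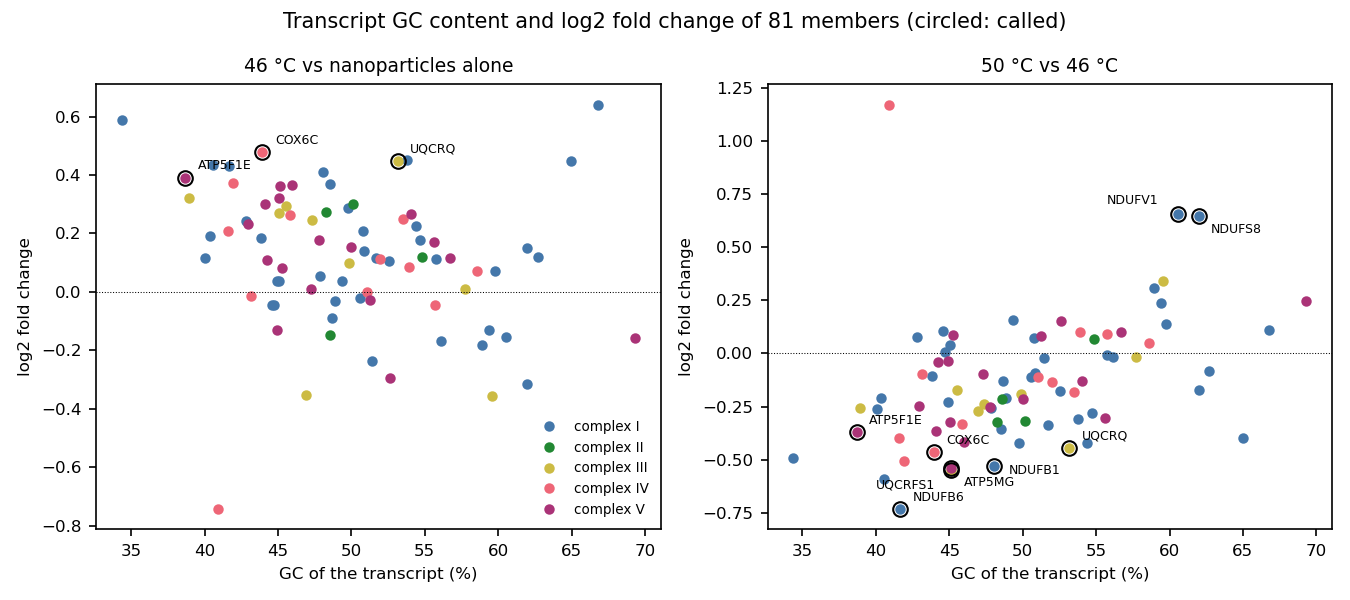
GC content of the transcript (%, GENCODE v29) and log2 fold change of the 81 protein-coding tested members, coloured by complex, for 46 °C against nanoparticles alone and for 50 against 46 °C; circled genes passed the test. In the right panel NDUFS8 (62.0% GC) and NDUFV1 (60.5%) stand above 0, and the 7 genes that fell lie between 38.7 and 53.1% GC. NDUFB7 (65.0%), which did not pass, lies below 0.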

How the data were processed

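MDA-MB-231 cells in 5 groups of 4 libraries were profiled with QuantSeq 3′ mRNA libraries. Values are the authors' deposited estimated counts for each gene. The submitters' processing notes name STAR, Salmon and GRCh38; versions, annotation and strand setting were not given in the sources used here. Between 1.74 and 2.90% of a library's values were not whole, and all were rounded. Totals were 2401180 to 7710977 per library, and low counts set the precision.

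Members were chosen by gene name, and members, named genes and related lists were chosen with earlier results of these data known. Genes passing filterByExpr (minimum count 10, minimum total 15) were fitted with edgeR 4.0.16 (R 4.3.3): TMM, robust quasi-likelihood fit over 5 group means and 20 libraries, Benjamini-Hochberg adjustment over 12149 genes. SE is the size of the log2 fold change divided by the square root of F. The fit was tested on simulated data. Named were every member that passed, fixed core, c-ring and isoform genes, and each complex's highest and lowest member; genes named for groups that did not overlap were added after their values were seen. Replicates of a group differed beyond sampling noise (chi-square per gene 7.27 to 23.1), so each was kept. Same-numbered libraries of different groups deviated together with correlations of 0.022 to 0.066 over all tested genes, low but all positive. The main fit did not use numbers as pairs, and low correlations do not show that replicate number has no part. Alternatives were other scalings, no filter, DESeq2 1.42.0, a replicate block, replicates 1 and 2 or 3 and 4 alone, and each library left out. Positions, overlaps and transcript GC came from GENCODE v29, promoter windows from RefSeq on GRCh38.p14.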

Additional observations from a re-analysis of the deposited data

Results flagged for a closer look

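In all, 3 values among 90 groups of 4 libraries examined for the named members lay far from the other 3 libraries of their group; chance marks about 1 in 20 such groups. ATP5F1E had 1585 CPM in 46 °C replicate 2, where the other 46 °C libraries had 1235 to 1273 CPM. ATP5MG had 713 CPM in 50 °C replicate 3, where the others had 911 to 934 CPM. NDUFB1 had 310 CPM in replicate 4 of nanoparticles alone, where the others had 265 to 272 CPM. The first 2 of these libraries are among those whose removal ended the calls of ATP5F1E and ATP5MG from 46 to 50 °C (adjusted p = 0.297 and 0.0676, edgeR).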

How the results depend on the processing

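No result reversed its direction as a call under any alternative, and in the comparisons of nanoparticles alone with untreated cells, of 50 or 54 °C with nanoparticles alone and of 54 with 50 °C, 0 members passed under each of the 15 alternatives. With the replicate number as a replicate block, 7 members were higher at 46 °C than with nanoparticles alone, 13 were lower at 50 than at 46 °C and 9 lower at 54 than at 46 °C. Over all tested genes the block called 161, 179 and 90 in the same order, against 75, 74 and 48 in the main fit. Of 20 libraries 9 correlated best with their own number. For 46 °C against nanoparticles alone, 12 were higher within replicates 1 and 2 and 0 within 3 and 4, and leaving out a library gave 0 to 3. For 50 against 46 °C, members higher were 0 with library totals, 1 within replicates 1 and 2, 0 within 3 and 4, and 0 to 1 with a library left out; members lower were 16 with library totals, 1 within replicates 3 and 4, and 0 to 7 with a library left out. For 54 against 46 °C, members higher were 0 with library totals and within either pair of replicates, and 0 to 1 with a library left out; members lower were 2 with DESeq2's size factors, 2 with no filter, 5 with DESeq2, 6 with library totals, 13 within replicates 1 and 2, 0 within 3 and 4, and 0 to 3 with a library left out. Over all tested genes, library totals called 374 lower and 46 higher from 46 to 50 °C, against 74 and 71 with TMM. Apart from the shift of all genes under library totals and the smaller number of libraries in the pairs of replicates and without a library, the cause was not tested. Depth limits the rarest members, UQCRHL, COX7B2 and NDUFB2-AS1, whose SE exceeded 0.7 on the log2 scale in all 7 comparisons.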
